A study of Mus musculus with 29 samples.

Results

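Collagens, laminins, tissue inhibitors of metalloproteinases (Timps) and matrix metalloproteinases (Mmps) were taken from mouse liver arrays by gene name. Every probe that is no control counted if its name read Col, a number, a and a number, or began with Lama, Lamb, Lamc, Timp or Mmp and a number. That gave 79 genes of 31693 on the array, with 108 probes: 41 collagens, 11 laminins, 4 Timps and 23 Mmps. The arrays hold 1 liver each of 29 C57BL/6N males. Feeding began at 3 months of age and lasted 7 weeks, on a high-fat diet made with corn oil (cHF). In 8 mice (cHF+PC+R) about 7% of the dietary lipid was replaced by an omega-3 phospholipid concentrate (PC) that carries EPA and DHA, and the PPAR-gamma agonist rosiglitazone (R) was given at a low dose. A further 8 mice (cHF+PC) received the phospholipids alone, 6 (cHF+R) rosiglitazone alone and 7 (cHF) the high-fat diet alone, which every group ate. No chow-fed group was analysed here, so each value is set against a liver that was itself on a high-fat diet.

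The extracellular matrix of the liver is thin. Fibrillar collagens of types I, III and V give the portal tracts and the space beside the sinusoids their tensile strength, and network collagens of type IV join with laminins, trimers of an alpha, a beta and a gamma chain, into basement membranes. Stellate cells, which also store vitamin A, are the main makers of fibrillar collagen when the liver is injured, Mmps cut the matrix and Timps block the Mmps. In whole liver RNA, fewer cells of a type and less RNA per cell cannot be told apart.

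Each value below is the log2 ratio of a liver, labelled with Cy5, to a pool of all samples, labelled with Cy3. A change is the difference between group means of this ratio, given with its standard error from limma, and "rose" and "fell" are used where the p-value adjusted by Benjamini-Hochberg over all 19465 tested genes was under 0.05. Between 55.0% and 62.5% of 43020 spots were well above background in Cy5 on 28 arrays, and 80.8% on cHF replicate 4. Between cHF+PC replicate 6 and cHF+R replicate 5 the log2 ratios correlated at r = -0.305, the lowest of all array pairs. Livers can lie on opposite sides of a pool made from all of them, and the labels state the dyes, so ratios were read as Cy5 over Cy3. All 11 hepatocyte markers were well above background on all 29 arrays.

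The first 30 bases of the 60-base probes are shown for the members that the results turn on, since each value rests on 1 probe and not on the whole gene. Positions are on the build mm9, as in the files, and the bases are those of the probe from 5′ to 3′, in lower case throughout with none marked.
Col4a2, chr8:11448840-11448869, plus strand: cagtcttcctaaaatgaggcagagtctagg
Col5a3, chr9:20574622-20574651, minus strand: tctgtggtctatttaatttgcttccttctg
Col27a1, chr4:62995485-62995514, plus strand: ccaacctttcgagtgcagccaaaccttact
Col18a1, chr10:76515820-76515849, minus strand: gggatacaatcctgtatagttcccattttt
Lamb1, chr12:32014411-32014440, plus strand: ccgaggcagtcatctacaaataacccatca
Lamb3, chr1:195170009-195170038, plus strand: tgtatgaacacaaaacccaataaaaatctt
Mmp14, chr14:55058775-55058804, plus strand: ggacagcgagtaccctaaaaacatcaaagt
Col1a1, chr11:94813115-94813144, plus strand: tgaccaactgaacgtgaccaaaaaccaaaa
Col3a1, chr1:45405589-45405618, plus strand: ataagccaaactctctgaaaccccagcaaa
Lama3, also past the threshold below, is named without its probe.

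Of the 79 genes, 47 had a probe that 6 or more arrays showed well above background in Cy5 and that 20 or more arrays gave a value for, and these were tested. They were 23 of 41 collagens, 11 of 11 laminins, 3 of 4 Timps and 10 of 23 Mmps. On all 29 arrays 37 members were well above background, while the other 10 tested members were so on 9 (Mmp10) to 28 arrays, with Timp1 on 20. The 32 members that were not tested include 11 seen well above background on no array and 21 on 1 to 5 arrays. Of these 32, 20 were well above background on cHF replicate 4, the array with the most bright spots, and 5 on that array only. Mmp9 and Mmp12, proteases of neutrophils and macrophages, Mmp13, the main interstitial collagenase of rodents, and Timp4 each reached 2 arrays. Col5a2 reached 1 array and Col15a1, a collagen of basement membrane zones, reached 3. For these genes most arrays give a signal that was not well above background, which is no sign of absence.

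**Figure D1:**
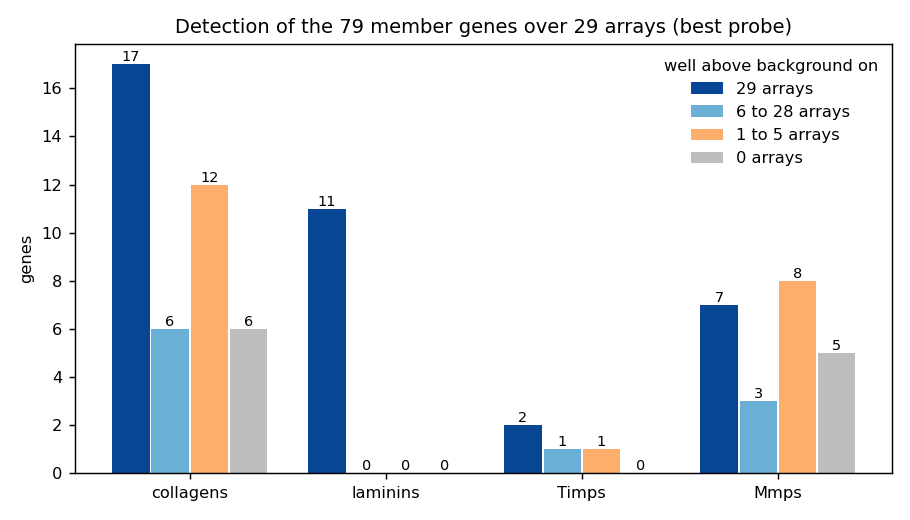
Number of genes (y axis) in each family (x axis) by the number of the 29 arrays on which the best probe was well above background in Cy5. All 11 laminins were so on all 29 arrays, while 18 of 41 collagens and 13 of 23 Mmps were so on 5 arrays or fewer.

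Most of the calls came with the combined supplement. Between cHF+PC+R and cHF, 2 of 47 members rose (Col4a2 and Mmp14) and 4 fell (Col27a1, Col5a3, Lama3 and Lamb3). That is 6 of 47, or 12.8%, against 9.5% of all genes tested, so the share is near the background (4.74% of all genes rose and 4.76% fell). With median centring in place of loess no member passed in any comparison against cHF, and with scaling between arrays after loess only Lama3 did. The members' median change was 0.0091, against 0.0109 for all genes, with 24 members above 0 and 23 below. Changes lay between -0.63 and 0.38.

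Col4a2 and Col4a1 encode the chains of the most widespread type IV collagen network, and their genes lie head to head. In RefSeq (GRCm38.p6) their annotated starts, on opposite strands of chromosome 8, are 21 bases apart, Col4a1 at 11312826 and Col4a2 at 11312805. Col4a1 lies on the minus strand and Col4a2 on the plus strand, so the annotated 5′ ends overlap and leave no gap. Col4a2 lay between 0.0184 and 0.36 in cHF+PC+R livers (median 0.20), between -0.19 and 0.22 in cHF+PC (median -0.083), between -0.25 and 0.24 in cHF+R (median -0.042) and between -0.26 and 0.033 in cHF (median -0.15). Only 1 cHF liver reached the range of cHF+PC+R. Its mean was 0.17 ± 0.123 in cHF+PC+R (SD, n = 8) and -0.15 ± 0.101 in cHF (SD, n = 7), a rise of 0.32 ± 0.0707 (SE) or 1.25-fold (limma adjusted p = 0.00436). Col4a2 was higher in 7 of 7 slides that carried both groups, by 0.13 to 0.49, and by 0.31 with the slide as a block (adjusted p = 0.00515).

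Col4a1 did not pass in any comparison. Its change was 0.12 ± 0.0759 in cHF+PC+R, -0.13 ± 0.0759 in cHF+PC and 0.23 ± 0.0816 in cHF+R, each against cHF. In cHF+PC+R against cHF+PC, Col4a1 differed by 0.24 ± 0.0733 and Col4a2 by 0.24 ± 0.0683 (adjusted p = 0.226 and 0.192). Col4a6, of a rarer type IV network, had changes of -0.13, -0.11 and -0.14 in cHF+PC+R, cHF+PC and cHF+R against cHF and passed in none of them (adjusted p from 0.0762 to 0.201, each with a value missing in 1 of 29 livers).

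Col5a3, a minor chain of the type V collagen that copolymerises with type I fibrils, was lower than in cHF in both groups fed the phospholipids. Its values ran from -0.53 to 0.0044 in cHF+PC+R (median -0.14), from -0.63 to 0.17 in cHF+PC (median -0.077), from -0.10 to 0.28 in cHF+R (median 0.081) and from -0.15 to 0.65 in cHF (median 0.39). The cHF group was widest at the top, and each phospholipid group overlapped it. Col5a3 fell by 0.54 ± 0.118 in cHF+PC+R against cHF (1.45-fold; limma adjusted p = 0.00396) and by 0.48 ± 0.118 in cHF+PC against cHF (1.40-fold; adjusted p = 0.0163). These comparisons share the cHF livers. In both, 6 of 7 slides showed the lower value, from -1.08 to 0.092 for cHF+PC+R and from -1.28 to 0.16 for cHF+PC. A slide block gave an adjusted p of 0.0154 for cHF+PC+R and 0.0505 for cHF+PC, a fit of the compared groups alone gave 0.0516 for cHF+PC, and without cHF replicate 5 the change in cHF+PC was -0.43 (adjusted p = 0.0502). In cHF+R against cHF the change was -0.24 ± 0.126 and did not pass (adjusted p = 0.374). In cHF+PC+R against cHF+R it was -0.29 ± 0.123 and did not pass either (adjusted p = 0.143).

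Col27a1, a fibrillar collagen best known from cartilage, had its highest levels in cHF. Its values were -0.84 to 0.098 in cHF+PC+R (median -0.24), -0.74 to 0.21 in cHF+PC (median 0.0005), -0.78 to 0.20 in cHF+R (median -0.074) and 0.14 to 0.60 in cHF (median 0.19). No cHF+PC+R liver reached the lowest cHF liver, and Col27a1 was the 1 member whose values did not overlap in that comparison, where 2.46% of all genes did not overlap. In the other comparisons no member was so, against 1.42% of all genes in cHF+PC and 2.12% in cHF+R against cHF, 1.61% in cHF+PC+R against cHF+R and 0.103% in cHF+PC+R against cHF+PC. Col27a1 fell by 0.58 ± 0.147 in cHF+PC+R against cHF (1.5-fold; adjusted p = 0.0109), in 7 of 7 slides by -1.03 to -0.19, and by 0.59 with the slide as a block. The change was -0.35 ± 0.147 in cHF+PC and -0.49 ± 0.158 in cHF+R against cHF, neither past the threshold (adjusted p = 0.190 and 0.0877).

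The laminin chains that fell with the combined supplement are Lama3 and Lamb3, which belong to the laminins of epithelial attachment. Lama3 ranged from -0.34 to 0.046 in cHF+PC+R (median -0.096), from -0.11 to 0.088 in cHF+PC (median 0.025), from 0.033 to 0.29 in cHF+R (median 0.094) and from 0.028 to 0.51 in cHF (median 0.089). Only 1 cHF+PC+R liver reached the range of cHF. Lama3 fell by 0.30 ± 0.0652 in cHF+PC+R against cHF (1.23-fold; adjusted p = 0.0037), lower in 7 of 7 slides by -0.63 to -0.0056. It also fell by 0.26 ± 0.068 in cHF+PC+R against cHF+R (1.19-fold; adjusted p = 0.0199), lower in 6 of 6 slides. A second probe of Lama3 changed by -0.40 against cHF (adjusted p = 0.00062 over probes). Against cHF+R it changed by -0.22 and did not pass (adjusted p = 0.0728 over probes). In cHF+R against cHF this probe had -0.18 and the representing probe -0.044, neither past the threshold. With the slide as a block, Lama3 in cHF+PC+R changed by -0.30 against cHF and by -0.25 against cHF+R. Without cHF+R replicate 4 the change against cHF+R was -0.23 (adjusted p = 0.0579).

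Lamb3 varied far more between livers of a diet. It ran from -0.86 to 0.52 in cHF+PC+R (median -0.56), from -0.63 to 0.18 in cHF+PC (median -0.24), from -0.59 to 0.83 in cHF+R (median 0.13) and from -0.19 to 0.46 in cHF (median 0.40). Of the cHF+PC+R livers 2 lay at the cHF level and 6 below every cHF liver. Lamb3 fell by 0.63 ± 0.202 in cHF+PC+R against cHF (1.55-fold; adjusted p = 0.0467), in 5 of 7 slides. This call was just inside the threshold: it was lost with the slide as a block (-0.58; adjusted p = 0.0858), with no filter on dim probes (0.0629) and when any of 18 of the 29 arrays was left out (adjusted p up to 0.0892). Those were cHF replicates 2 to 7, cHF+R replicates 2, 4 and 5, cHF+PC replicates 3, 7 and 8, and cHF+PC+R replicates 1 to 5 and 7.

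Among the proteases, Mmp14 rose. It encodes a membrane-bound collagenase that also activates the secreted gelatinase Mmp2. Its values were -0.052 to 0.16 in cHF+PC+R (median 0.0016), -0.37 to -0.020 in cHF+PC (median -0.074), -0.17 to 0.095 in cHF+R (median -0.012) and -0.47 to 0.078 in cHF (median -0.17). Both groups overlapped, with most cHF livers lower. The rise in cHF+PC+R against cHF was 0.21 ± 0.064 (1.16-fold; adjusted p = 0.0368), in 6 of 7 slides, and 0.22 in a fit with slide blocks (adjusted p = 0.0355). It missed the threshold in the deposited table (0.24; adjusted p = 0.112), with a replicate block (0.20; 0.0865), with array weights (0.17; 0.064), with the compared groups alone (0.0551) and with no filter on dim probes (0.0518). The call was lost, with adjusted p from 0.0511 to 0.107, without cHF replicate 2, 3, 5 or 6 or cHF+PC+R replicate 1, 3, 4 or 8. Mmp2 itself changed by 0.0188 ± 0.0655 in that comparison (adjusted p = 0.898).

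**Figure D2:**
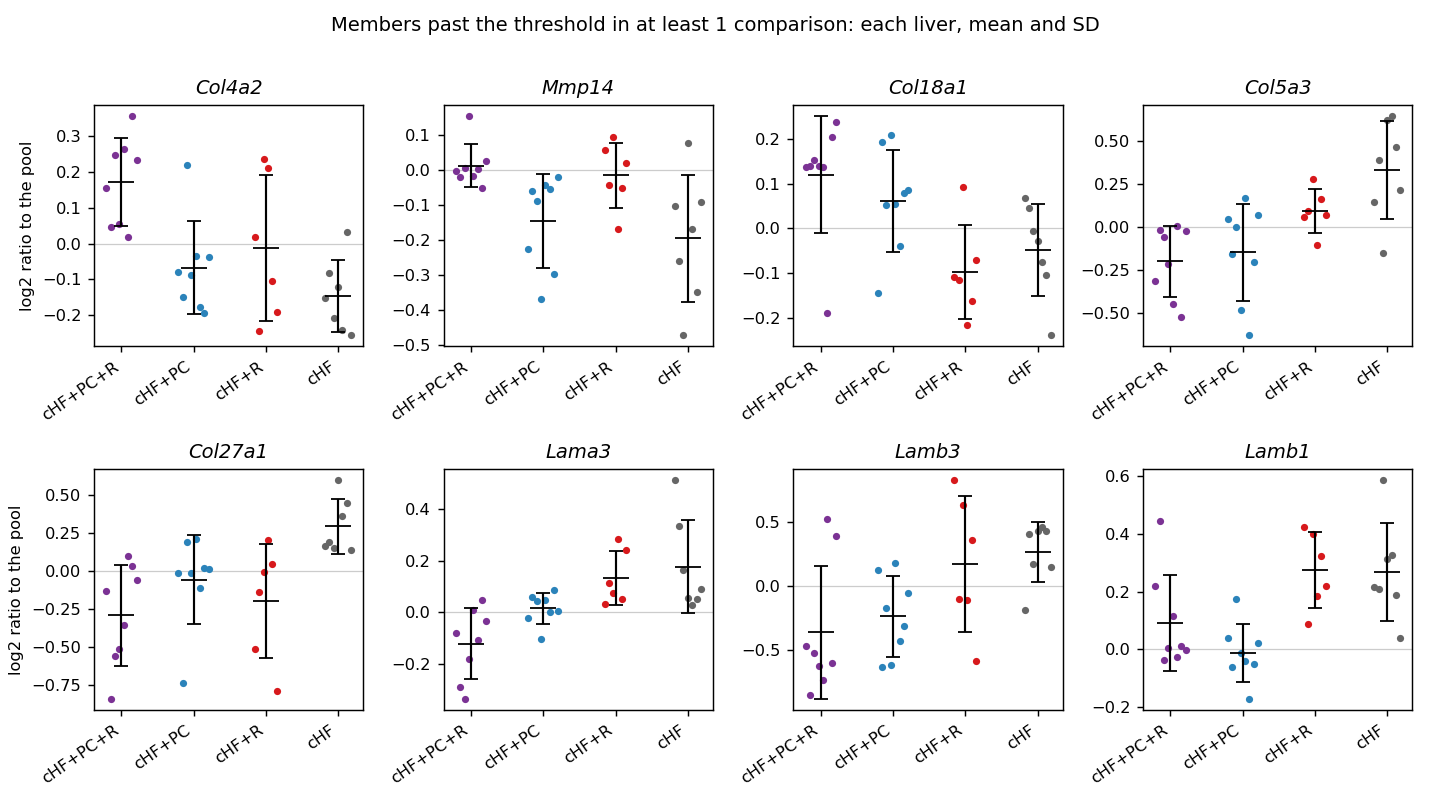
Log2 ratio to the pool (y axis) of the 8 members past the threshold in at least 1 comparison, for each liver (points) of the 4 diets (x axis), with the mean and SD (bars). The 8 Col27a1 values of cHF+PC+R all lie below the 7 of cHF, while 2 cHF+PC+R livers lie high for Lamb3.

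With the phospholipids alone, Lamb1 and Col5a3 fell, and most laminins had values below 0. In cHF+PC against cHF, 2 of 47 members fell, Lamb1 and Col5a3, and none rose. That is 4.26%, against 3.93% of all genes (1.82% rose and 2.11% fell). The members' median change was -0.046, with 33 of 47 below 0, against a median of 0.0009 for all genes. The members' median was -0.17 with Feature Extraction's processed signals and -0.166 in the deposited table. For the 11 laminins the median was -0.14, 10 were below 0 and 6 had an unadjusted p under 0.05, against 18.5% of all genes, but only Lamb1 passed after adjustment. Lamc3, a gamma chain, also passed without background subtraction, with processed signals and in the deposited table, and Lamb3 passed with the compared groups alone.

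Lamb1, the beta chain of the most widespread laminins, ran from -0.039 to 0.45 in cHF+PC+R (median 0.0072), from -0.17 to 0.18 in cHF+PC (median -0.027), from 0.089 to 0.42 in cHF+R (median 0.27) and from 0.040 to 0.59 in cHF (median 0.22). Most livers of the phospholipid groups lay near 0, and those without phospholipids above it. Lamb1 fell by 0.28 ± 0.0727 in cHF+PC against cHF (1.22-fold; adjusted p = 0.0246), in 7 of 7 slides by -0.50 to -0.019, and by 0.27 with the slide as a block (adjusted p = 0.0376). The call was lost without cHF replicate 3 (-0.23; adjusted p = 0.0698), without cHF replicate 5 (-0.27; 0.0557), without cHF+PC replicate 6 (-0.26; 0.0517) and with array weights (-0.19; 0.0563). In cHF+PC+R against cHF the change of Lamb1 was -0.18 (adjusted p = 0.122), and in cHF+R it was 0.0049. In cHF+PC+R against cHF+R it was -0.18 ± 0.0759 and did not pass (adjusted p = 0.141).

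Of the alpha chains, Lama1, Lama3 and Lama5 had lower values in cHF+PC than in cHF and did not pass there in the fit used throughout. Lama3 changed by -0.16 ± 0.0652 (adjusted p = 0.166), while Lama2 and Lama4 differed little (-0.024 and -0.011). Lama1, an early embryonic chain, changed by -0.25 ± 0.083 in cHF+PC and by -0.25 ± 0.083 in cHF+PC+R against cHF (adjusted p = 0.0896 and 0.0575), and by -0.26 ± 0.0867 in cHF+PC+R against cHF+R (adjusted p = 0.0606). In cHF+PC against cHF Lama1 passed with a replicate block (adjusted p = 0.0349), without background subtraction (0.0416) and with processed signals (0.0493), and in cHF+PC+R against cHF+R with a replicate block (0.0418), without cHF replicate 3 (0.0344) and without cHF+PC+R replicate 2 (0.0335). It also passed with a slide or a replicate block in cHF+PC+R against cHF. Lama5, common in adult basement membranes, changed by -0.17 ± 0.0659 in cHF+PC against cHF (adjusted p = 0.156). Of 12 markers of sinusoidal endothelium 1, the junction protein Cdh5, fell in cHF+PC against cHF, by 0.16 ± 0.0457 (adjusted p = 0.0449). The median change of the 12 markers was -0.013, and 2.11% of all genes fell in that comparison. The level of these markers ran from -0.21 to 0.0021 in cHF+PC livers and from -0.14 to 0.046 in cHF livers, as the mean log2 ratio of the list, and its part in the laminin values was not tested.

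**Figure D3:**
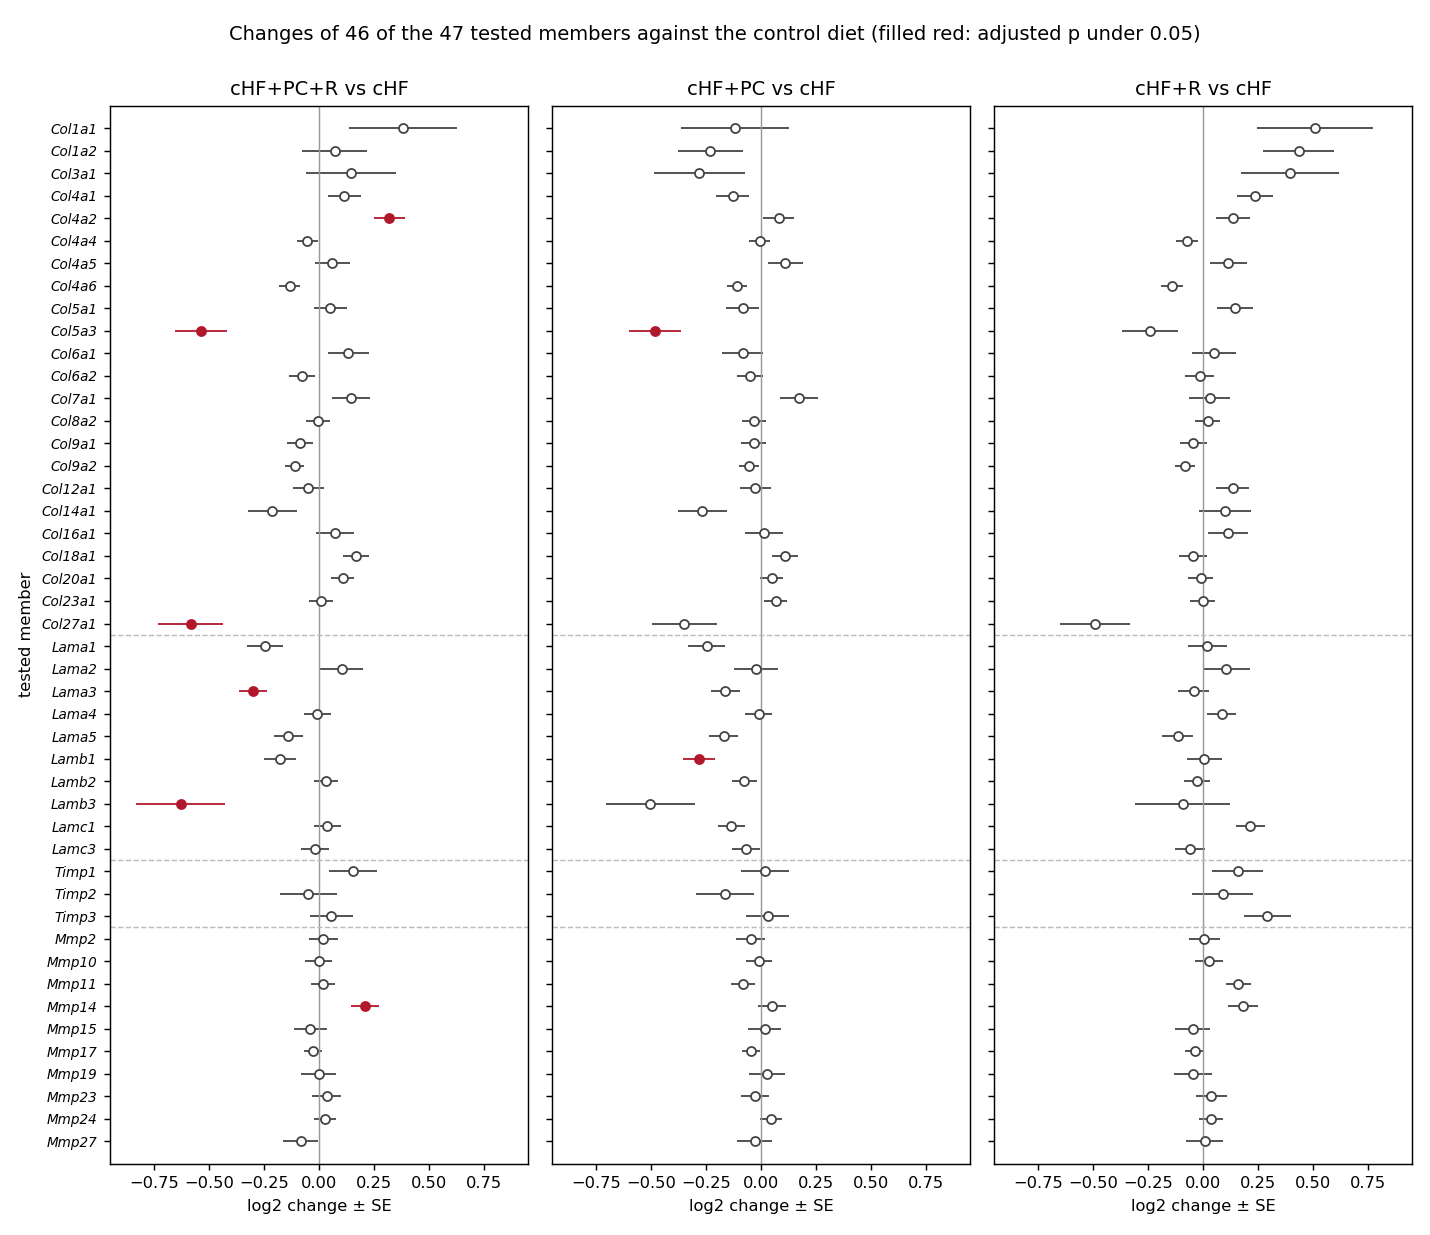
Change in log2 ratio (x axis, with SE) of 46 of the 47 tested members (y axis, by family) in cHF+PC+R, cHF+PC and cHF+R, each against cHF. Filled red points passed the threshold: 6 members in cHF+PC+R, 2 in cHF+PC and none in cHF+R.

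Rosiglitazone alone moved no member past the threshold. In cHF+R against cHF 0 of 47 members passed by limma, where 3.12% of all genes did (2.02% rose and 1.09% fell), while 8 members had an unadjusted p under 0.05 (17.0%, against 15.0% of all genes). The members' median change was 0.0199, with 29 of 47 above 0, against a median of 0.0138 and 56.5% above 0 for all genes. Nearest to the threshold was Lamc1, the gamma chain of most laminins, with 0.21 ± 0.0649 (adjusted p = 0.069), positive in 5 of 5 slides. It passed without cHF replicate 3 (0.24; adjusted p = 0.036) and, together with Col4a1 (0.31; adjusted p = 0.0204), without cHF+R replicate 2, while Col27a1 passed without cHF+PC replicate 2 (-0.49; adjusted p = 0.0475). Timp3, the inhibitor that binds to the matrix, had 0.29 ± 0.105 (adjusted p = 0.146), and Mmp11 0.16 ± 0.0566 (adjusted p = 0.135), though a second probe of Mmp11 had 0.0057.

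The type I and III fibrillar collagens had their highest medians in cHF+R. Col1a1 ran from -0.69 to 1.23 in cHF+PC+R (median 0.12), from -0.94 to 0.035 in cHF+PC (median -0.37), from -0.77 to 0.74 in cHF+R (median 0.47) and from -0.83 to 0.58 in cHF (median -0.29). Col1a2, the partner chain of type I collagen, ran from -0.48 to 0.44 in cHF+PC+R (median 0.094), from -0.70 to 0.11 in cHF+PC (median -0.25), from -0.17 to 0.77 in cHF+R (median 0.49) and from -0.36 to 0.35 in cHF (median -0.055). Col3a1, the chain of type III collagen, ran from -0.66 to 0.99 in cHF+PC+R (median 0.19), from -0.62 to 0.12 in cHF+PC (median -0.31), from -0.53 to 0.78 in cHF+R (median 0.63) and from -0.51 to 0.63 in cHF (median -0.019). All groups overlapped. In cHF+R against cHF the changes were 0.51 ± 0.264 for Col1a1, 0.43 ± 0.16 for Col1a2 and 0.39 ± 0.221 for Col3a1, and none passed (adjusted p from 0.157 to 0.414). With standard errors this wide, the arrays set no narrow limit on a change of these chains.

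**Figure D4:**
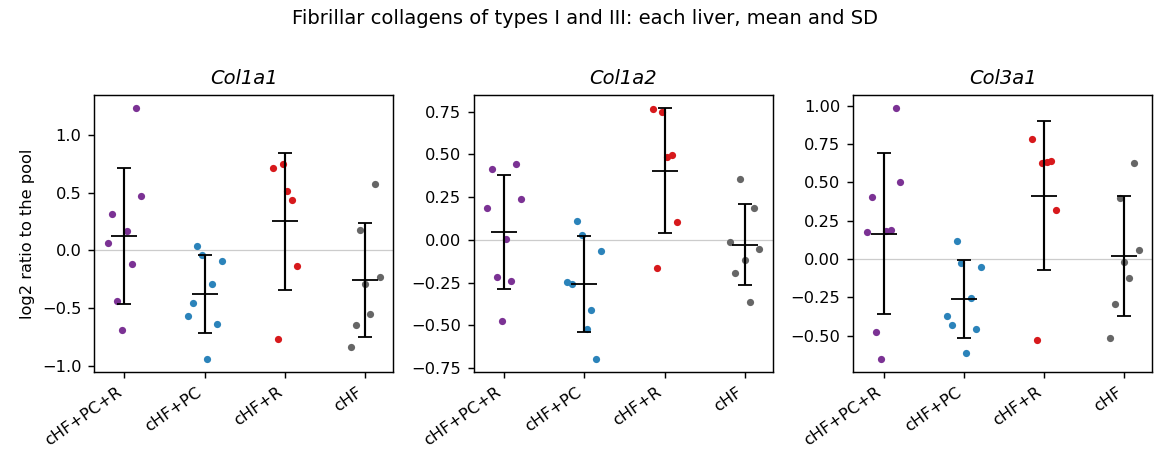
Log2 ratio to the pool (y axis) of Col1a1, Col1a2 and Col3a1 for each liver (points) of the 4 diets (x axis), with the mean and SD (bars). The groups overlap, and the spread within a diet is as wide as the distance between diets, with Col1a1 from -0.69 to 1.23 within cHF+PC+R.

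When the phospholipids were added to rosiglitazone, 1 of 47 members rose and 1 fell. In cHF+PC+R against cHF+R, 4.26% of members passed, against 7.14% of all genes (3.31% rose and 3.83% fell), and 14 had an unadjusted p under 0.05, against 22.2% of all genes. The one that rose was Col18a1, a basement membrane collagen whose end is cut off as endostatin. It ran from -0.19 to 0.24 in cHF+PC+R (median 0.14), from -0.14 to 0.21 in cHF+PC (median 0.067), from -0.21 to 0.092 in cHF+R (median -0.11) and from -0.24 to 0.067 in cHF (median -0.028). Of 8 cHF+PC+R livers 7 lay above every cHF+R liver. The rise was 0.22 ± 0.0614 (1.16-fold; adjusted p = 0.0294), in 6 of 6 slides by 0.061 to 0.35, and 0.24 with the slide as a block (adjusted p = 0.0199). A second probe had 0.26 ± 0.0817 (adjusted p = 0.0554 over probes) and did not pass. The call was lost, with adjusted p from 0.0529 to 0.076, without cHF+R replicate 1, 2, 4 or 5 or cHF+PC+R replicate 7 or 8. It was also lost with the deposited table (0.18; 0.077), with processed signals (0.19; 0.0775), with no background subtraction (0.0521) and with the compared groups alone (0.0686). Median centring in place of loess turned the sign (-0.0365). Without cHF+R replicate 4 no member passed in this comparison, while 5 did without cHF+PC+R replicate 2 (Col14a1, Col18a1, Lama1, Lama3 and Lamb1) and 4 without cHF+PC+R replicate 6 (Col12a1, Col18a1, Lama3 and Lamb3).

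Adding rosiglitazone to the phospholipids moved no member past the threshold. In cHF+PC+R against cHF+PC 0 of 47 passed by limma, as 0.134% of all genes did, and 9 had an unadjusted p under 0.05 (19.1%, against 8.53% of all genes). The smallest p-values were those of Col4a2 (0.24 ± 0.0683), Col4a1 (0.24 ± 0.0733), Lamc1 (0.17 ± 0.0583), Mmp14 (0.16 ± 0.0619) and Col6a1 (0.22). Each of Col4a2, Lamc1 and Mmp14 was higher in 8 of 8 slides, and the adjusted p-values of the 5 ran from 0.192 to 0.502. Lama3 was lower in 8 of 8 slides, with -0.14 ± 0.063 (adjusted p = 0.554). Changes within slides were computed for members only. The interaction of PC and R, which asks whether each supplement acts differently beside the other, passed in 0 of 47 members and in 0 of all genes by limma, and 0 members had an unadjusted p under 0.05, against 6.63% of all genes. Its smallest p among members was that of Timp3 (-0.26; adjusted p = 0.773).

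Genes that build and remodel the matrix but lie outside the 4 families were read next. Of 23 measured genes of collagen modification, 0 rose and 1 fell in both cHF+PC+R and cHF+PC against cHF. That was Bmp1, which trims the ends of procollagens, with -0.26 ± 0.0746 in cHF+PC+R (adjusted p = 0.0266) and -0.28 ± 0.0746 in cHF+PC (adjusted p = 0.0293). In cHF+PC+R against cHF+R 3 of the 23 fell: Serpinh1, the collagen chaperone, by 0.44 ± 0.132, Pcolce, which speeds procollagen trimming, by 0.34 ± 0.102, and Pcolce2 by 0.26 ± 0.078. Of 34 other matrix glycoproteins and proteoglycans, 2 fell in that comparison, Postn by 0.49 ± 0.108 and Sparc by 0.35 ± 0.106. The medians of these lists in that comparison were -0.052 and -0.027, against -0.0054 for all genes. Of all genes 3.83% fell there, while 4.76% fell in cHF+PC+R and 2.11% in cHF+PC, each against cHF.

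Of 20 measured genes of TGF-beta signalling, Smad3, which carries the signal to the nucleus, rose in cHF+PC+R by 0.19 ± 0.0572 against cHF (adjusted p = 0.0299) and by 0.25 ± 0.0597 against cHF+R (adjusted p = 0.00903). Ccn1 also rose against cHF+R, by 0.27 ± 0.0829. The ligand Tgfb1 changed by 0.053 in cHF+PC+R against cHF and did not pass. Among 15 receptors for collagen and laminin, Itga6, a laminin-binding integrin, rose in cHF+R against cHF by 0.92 ± 0.227 and Dag1, dystroglycan, by 0.26 ± 0.0613. Against cHF, cHF+PC+R livers had Dag1 higher by 0.18 ± 0.057, and Itga1, a collagen-binding integrin, fell by 0.13 ± 0.0384. Of 18 other matrix proteases and inhibitors, Bsg, an inducer of Mmps, rose by 0.29 ± 0.0533 in cHF+PC+R and by 0.26 ± 0.0533 in cHF+PC against cHF, and the protease Adamts1 fell by 0.33 ± 0.0811 and 0.34 ± 0.0811. Against cHF, 4.74% of all genes rose and 4.76% fell in cHF+PC+R, 1.82% rose and 2.11% fell in cHF+PC, and 2.02% rose in cHF+R. Against cHF+R, 3.31% rose in cHF+PC+R.

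Markers of the cells that could supply matrix RNA were read beside these values. Of 17 measured markers of stellate cells and fibroblasts, 1 fell and none rose in cHF+PC+R and in cHF+PC, each against cHF. That was Lrat, which esterifies vitamin A in stellate cells, with falls of 0.34 ± 0.0904 and 0.49 ± 0.0904. The list's median changes there were -0.025 and -0.060, and 4.76% and 2.11% of all genes fell. Lrat also fell by 0.58 ± 0.0943 in cHF+PC+R against cHF+R, where 2 of the 17 fell (list median -0.12), against 3.83% of all genes. In cHF+R against cHF 1 of the 17 rose and none fell (list median 0.12), where 2.02% of all genes rose. The mean log2 ratio of the list ran from -0.16 to 0.29 in cHF+PC+R livers, from -0.22 to -0.0027 in cHF+PC, from -0.077 to 0.28 in cHF+R and from -0.066 to 0.13 in cHF. The list of 12 Kupffer cell and macrophage markers had median levels of -0.061 in cHF+PC+R, -0.21 in cHF+PC, -0.029 in cHF+R and -0.057 in cHF livers. These levels overlapped, from -0.35 to 0.25 in cHF+PC+R, from -0.44 to 0.21 in cHF+PC, from -0.19 to 0.64 in cHF+R and from -0.37 to 0.17 in cHF. None of the 12 passed in any comparison.

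Fat cell markers rose with rosiglitazone alone. Of 4 measured adipocyte markers 3 rose in cHF+R against cHF, where 2.02% of all genes rose: Cfd by 4.51 ± 0.835, Fabp4 by 1.27 ± 0.307 and Retn by 0.66 ± 0.185. None of the 4 passed in cHF+PC+R against cHF or against cHF+PC. Against cHF+R, where Serpinh1, Pcolce, Pcolce2, Postn and Sparc fell, Cfd fell by 3.01 ± 0.835 (adjusted p = 0.0267) and Fabp4 by 1.15 ± 0.298 (adjusted p = 0.0175). The list's mean log2 ratio ran from -2.70 to 1.48 in cHF+PC+R livers, from -3.16 to -1.98 in cHF+PC, from -1.47 to 2.15 in cHF+R and from -2.52 to -1.43 in cHF. The defining markers Adipoq, Lep and Plin1 were too dim to be tested. Since fat tissue also makes collagen, these values stand beside those of Col1a1, Col1a2 and Col3a1 in cHF+R and of the matrix genes that fell in cHF+PC+R against cHF+R, and their part in them was not tested.

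Several members differed widely between livers of the same diet. The residual SD within groups was 0.507 for Col1a1, at percentile 99.0 of all tested genes, 0.423 for Col3a1, 0.417 for Lamb3 and 0.306 for Col1a2, while the median was 0.138 for members and 0.111 for all tested genes. Deviations from the group mean were then compared between genes. Across 29 livers, each measured on 1 array that holds every gene, Col3a1 followed Col1a1 with r = 0.968 and rho = 0.947 (permutation p = 1e-05 each, the smallest that 100000 permutations within groups can give). Adjusted over all 19464 genes, the p-values were 0.00885 and 0.0108.

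Of 46 relations with Col1a1 computed among members, 5 passed after adjustment over all 19464 genes, which is 10.9% against 0.241% of all genes. Besides Col3a1 these were Col6a1 (r = 0.873, rho = 0.913), a chain of the beaded filament collagen, Col1a2 (r = 0.86, rho = 0.867), Col16a1 (r = 0.817, rho = 0.874), which sits on fibril surfaces, and Lama2 (r = 0.761, rho = 0.767). Their permutation p-values were 1e-05 or 2e-05 and their adjusted values 0.00885 to 0.0144 for r and 0.0108 for rho. Without cHF+PC+R replicate 7 and cHF+R replicate 2, the livers farthest from the median of Col1a1, r was 0.954 for Col3a1, 0.833 for Col6a1, 0.832 for Col1a2, 0.84 for Col16a1 and 0.681 for Lama2. With the slide removed as well as the group, r was 0.972, 0.902, 0.974, 0.821 and 0.779 in the same order.

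An r above 0.5 was reached by 12 of the 46 members (26.1%) and by 1.42% of all genes. The other 7 were Col5a1, Timp1, Mmp23, Col14a1, Col4a2, Mmp2 and Col4a1, with r between 0.52 and 0.693 and none past the threshold after adjustment over all genes. By family, 8 of 22 collagens, 1 of 11 laminins, 1 of 3 Timps and 2 of 10 Mmps reached it. Lists outside the families had like shares: 32.4% of 34 other matrix glycoproteins and proteoglycans, 29.4% of 17 stellate cell and fibroblast markers and 26.1% of 23 genes of collagen modification. Of the sinusoidal endothelial, Kupffer cell and hepatocyte markers none did. Without the same pair of livers r stayed above 0.5 in 8 of the 12 members, and was 0.464 for Mmp23, 0.462 for Col4a2, 0.446 for Col4a1 and 0.391 for Mmp2. Of the 8 members past the threshold in a diet comparison, Col4a2 had the highest r (0.585). It was -0.226 for Col5a3, 0.255 for Col27a1, -0.0642 for Lama3, 0.344 for Lamb1, 0.179 for Lamb3, 0.122 for Col18a1 and -0.275 for Mmp14. Among all genes, 3 of the 10 with the highest r were members, Col3a1 at rank 1, Col6a1 at 5 and Col1a2 at 6, and the others included Loxl1, which crosslinks collagen and elastin, Fkbp10, a chaperone of collagen folding, Fstl1, Anxa1, Ccdc80 and Prss23. Timp1 stood high in cHF+PC+R replicate 7, the liver with the highest Col1a1 deviation (1.11).

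**Figure D5:**
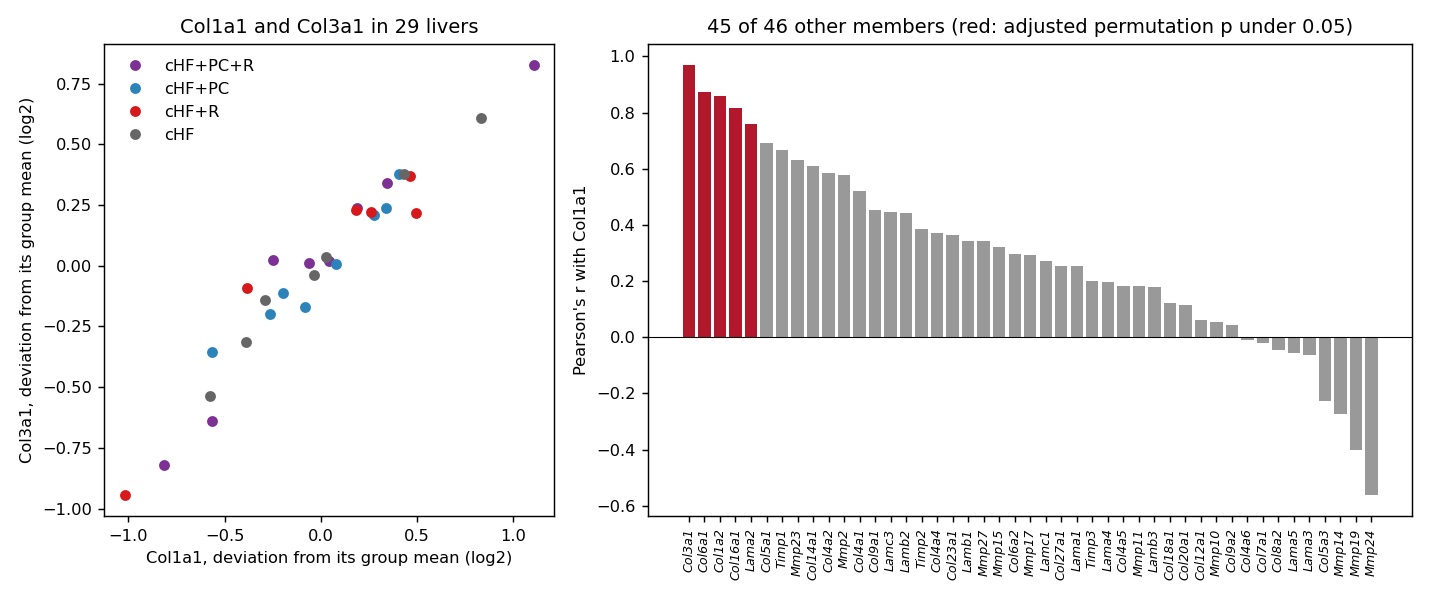
Left, deviation of Col3a1 from its group mean (y axis, log2) against that of Col1a1 (x axis, log2) in 29 livers, by diet (r = 0.968). Right, Pearson's r with Col1a1 (y axis) of 45 of the 46 other tested members (x axis), with the 5 past the adjusted threshold in red.

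Since Col3a1, Col6a1 and Col1a2 varied together, the 250 bases before their annotated starts are given, from RefSeq with positions on GRCm38.p6, on the strand of the gene from 5′ to 3′. Capitals mark CCAAT, the CCAAT box, and GGGCGG, the GC box, searched on both strands. The marked stretches do not overlap.
Col3a1, chr1:45311288-45311537, plus strand: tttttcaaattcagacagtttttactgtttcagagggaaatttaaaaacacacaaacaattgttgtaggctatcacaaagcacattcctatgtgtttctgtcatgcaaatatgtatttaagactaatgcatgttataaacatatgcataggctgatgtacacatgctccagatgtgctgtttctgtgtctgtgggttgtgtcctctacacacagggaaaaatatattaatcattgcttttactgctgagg
Col6a1, chr10:76726045-76726294, minus strand: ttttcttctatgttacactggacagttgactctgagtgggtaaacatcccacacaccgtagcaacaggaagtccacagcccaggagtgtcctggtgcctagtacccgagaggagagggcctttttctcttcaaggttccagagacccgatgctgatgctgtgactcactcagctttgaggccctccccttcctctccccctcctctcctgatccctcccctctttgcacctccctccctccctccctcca
Col1a2, chr6:4505368-4505617, plus strand: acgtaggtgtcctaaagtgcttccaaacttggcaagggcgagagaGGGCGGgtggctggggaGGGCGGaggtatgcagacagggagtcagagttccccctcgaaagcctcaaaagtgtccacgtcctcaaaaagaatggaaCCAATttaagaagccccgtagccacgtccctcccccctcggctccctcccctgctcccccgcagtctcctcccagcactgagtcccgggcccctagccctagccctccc
Neither motif was found before Col3a1 or Col6a1, while the window of Col1a2 holds 1 CCAAT, ending 105 bases before the start, and 2 GGGCGG. Of the 32851 windows of this length, 33.8% hold CCAAT and 32.7% GGGCGG. Windows were found for 60 of the 79 members (67 windows), of which 29.9% hold CCAAT and 47.8% GGGCGG. A match to these letters is a description of the window and shows no binding.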

How the data were processed

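Per the labels' protocols, each liver's total RNA was labelled with Cy5 and, pooled over all samples, with Cy3, and 1 array per liver was hybridised with no dye swap. The authors left out 1 high-fat and 1 rosiglitazone array. Per the file headers, scanner files hold linear spot intensity extracted with Agilent Feature Extraction 10.5.1.1. A table of log2 values was deposited too (25806 probes, median 9.03 in every column), which followed the Cy5 channel of its own array with r from 0.990 to 0.999. In 27 of 29 columns that array was the best match. No source used here gives its normalization.

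Intensities were background-corrected (normexp, offset 50), normalized by loess within arrays and averaged per probe. Of 39429 probes, 23932 passed the filter (6 or more arrays well above background in Cy5, 20 or more with a value), and a gene took its probe of highest mean intensity. Names came from accessions for 26412 probes. A linear model with 4 group means on 29 arrays (limma 3.58.1, R 4.3.3, lmFit and eBayes, two-sided) gave 19465 p-values per comparison, adjusted by Benjamini-Hochberg. The arrays lay on 8 slides, and a fit with slide blocks and changes within slides were computed. The number of arrays limits the precision. Correlations used permutations within groups. The linear model was checked on simulated data with independent noise, for cHF+PC against cHF only. That check set a demand only on changes larger than any change of a member here. The permutations, the interaction and the slide blocks were not simulated.

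Members, gene lists, alternatives and naming rule were chosen with earlier results of these data known. The rule names members past the threshold (up to 10 each way), the 5 with the smallest p where fewer pass, a set of anchor genes and up to 3 passing genes per list. Alternatives were other background corrections, normalizations, filters and probe rules, the deposited table, slide or replicate block, the compared groups alone, array weights and each array left out. The single values of 1 member and 1 marker gene are not reported here, and counts and list levels include them.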

Additional observations from a re-analysis of the deposited data

Results flagged for a closer look

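Among 27 named members in 4 diets (108 sets of livers), 10 values from 9 livers lay far from the rest of their group by Dixon's criterion, which chance would reach in about 1 set in 20. In cHF+R replicate 2, Col3a1 was at -0.53, against 0.32 to 0.78 in the other livers of the group, and Col14a1 at -0.45, against 0.058 to 0.31. Timp1 was at 0.78 in cHF+PC+R replicate 7, against -0.15 to 0.17 in the others, and at 0.73 in cHF+R replicate 1, against -0.11 to 0.071.

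Of the members past the threshold, Col18a1 was at -0.19 in cHF+PC+R replicate 6, against 0.14 to 0.24, and Mmp14 at 0.16 in cHF+PC+R replicate 4, against -0.052 to 0.026. In cHF+PC, Col27a1 was at -0.74 in replicate 2, against -0.11 to 0.21, and Col4a2 at 0.22 in replicate 3, against -0.19 to -0.034. Mmp15, a membrane-bound protease, was at -0.51 in cHF+R replicate 6, against -0.093 to 0.062. Mmp11 was at 0.21 in cHF replicate 3, against -0.072 to 0.020. The causes were not tested.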

How the results depend on the processing

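The 10 calls of members kept their direction under every alternative run but 1: with median centring in place of loess, Col18a1 in cHF+PC+R against cHF+R changed by -0.0365, where all genes had a median of -0.061, so relative to that median it stood at 0.0245 (0.22 with loess). Median centring also moved the median of all genes in cHF+R against cHF by over 0.1, to 0.152, and left 0 members called in cHF+PC, in cHF+PC+R against cHF and in cHF+PC+R against cHF+R. Loess with scaling between arrays left 0, 1 (Lama3) and 0 in the same comparisons. In cHF+PC against cHF the count of 2 became 4 without background subtraction (Lama1 and Lamc3 added), 5 with Feature Extraction's processed signals (Lama1, Lamc1 and Lamc3 added), 1 with the slide as a block (Lamb1) and 1 with array weights (Col5a3). It was 3 in the deposited table (Lamc3 added), and with only the compared groups the 2 were Lamb1 and Lamb3. In cHF+PC+R against cHF+R the members' median (-0.028) was -0.131 with the processed signals and -0.115 in the deposited table. In cHF+R against cHF it was 1 (Lamc1) with array weights, in cHF+PC+R against cHF+R 1 with only the compared groups in the fit, and in cHF+PC+R against cHF+PC 1 (Mmp14) with the processed signals. The deposited table and the other filters and probe rules moved no count by over 1.5 times. The cause was not tested.

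The replicate numbers were not read as a pairing of the livers. Over 40 pairs of equal number, deviations correlated from -0.353 to 0.402 (median 0.0178). Pairs of unequal number were not compared, so these values cannot decide whether the numbers pair livers. Most pairs of equal number also lay on the same slide, so a replicate block is in large part a slide block. With the number as a replicate block, 3 members were called in cHF+PC (Lama1 added), 1 (Lamc1) in cHF+R and 6 in cHF+PC+R, each against cHF, 4 in cHF+PC+R against cHF+R (Lama1 and Lamc1 added), and 0 in the other comparisons. Leaving out 1 array gave 0 to 2 members in cHF+PC, 0 to 2 in cHF+R and 4 to 8 in cHF+PC+R against cHF, 0 to 5 in cHF+PC+R against cHF+R, and 0 in the other comparisons. Over all genes the 765, 607, 1850 and 1389 calls in the first 4 comparisons (cHF+PC, cHF+R, then cHF+PC+R, each against cHF, and cHF+PC+R against cHF+R) became 10, 81, 82 and 53 with median centring. In cHF+R against cHF 394 of 607 calls were higher, 76 of 81 with median centring and 242 of 613 in the deposited table. Signal over background limits the 32 members that were not tested.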

Other observations

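The probes of a gene did not always give the same change. Col20a1, a fibril-associated collagen, had 0.047 in cHF+PC against cHF on the probe that represents it and 0.17 ± 0.048 on its other probe, which passed over probes (adjusted p = 0.0451). In the same comparison the probes of Col14a1 had -0.27 ± 0.111 and -0.045 ± 0.0788.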
